A study of Mus musculus with 18 samples.

Results

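Colon tissue of wild-type mice treated with azoxymethane (AOM) and dextran sulfate sodium (DSS) was compared with colon tissue of wild-type mice treated with DSS without AOM. The comparison used the 3 AOM/DSS and the 3 DSS libraries whose labels give the wild-type genotype, 6 of the 18 RNA libraries of the series, and the 6 were scaled together. The other 12 libraries came from RNF138-/- colon and from tumor organoids of both genotypes. All mice were C57BL/6 and entered the models at 6 to 8 weeks of age. The wild-type mice carried the RNF138fl/fl allele without deletion, so the floxed allele was common to both groups. In the colitis group DSS was given at 2% in drinking water for 7 days, with 14 days of plain water after it, and the cycle was repeated. In the AOM/DSS group 1 injection of AOM at 10 mg/kg preceded the first DSS course by 4 days. The study's methods give the DSS cycle the same number of repeats in both groups. The descriptions do not say whether a piece of colon held tumor, nor from where along the colon it was cut. Nothing in the labels pairs a mouse of 1 group with a mouse of the other, and the p-values measure the spread between these libraries.

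AOM is a carcinogen that is activated in the liver and the colon and alkylates DNA, and DSS damages the colonic epithelium, so that DSS alone gives colitis and the pair gives colitis with tumors. Colon tumors of this model usually carry activating changes of β-catenin, the effector of Wnt signaling. Wnt signaling normally keeps stem cells at the base of the crypt, and cells that leave the crypt base mature into absorptive colonocytes, mucus-making goblet cells, hormone-making enteroendocrine cells or tuft cells. The question that the comparison addresses is what the carcinogen and its tumors add to a chronically inflamed colon.

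Of 17158 genes with enough counts to be tested, 1159 were called higher in AOM/DSS (6.75% of genes tested) and 530 lower (3.09%). A call required an adjusted p under 0.05 by the quasi-likelihood test of edgeR with Benjamini-Hochberg adjustment and a fold change of at least 2. Without adjustment 1747 and 977 genes passed the same fold. Levels are given as CPM, the count of a gene relative to the total of its library, after TMM scaling of the 6 libraries, and log2 fold changes are AOM/DSS minus DSS with their standard error (SE). The median log2 fold change over all genes tested was 0.03. For single genes an exact permutation test (two-sided) of 3 libraries against 3 cannot give a p under 0.1, and genes whose groups did not overlap reached that value. Over all 17158 genes tested, the groups did not overlap in 3090 that were higher in AOM/DSS and in 2786 that were lower.

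The 2 sets of libraries also differed in their share of pseudogene counts. Pseudogenes, which are copies of genes that mostly make no protein, were called higher in 533 of 973 tested (54.8%) and lower in 11. Protein-coding genes were called higher in 521 of 14565 (3.58%) and lower in 481 (3.3%), and these percentages are the background for the gene lists. Processed pseudogenes held between 0.151% and 0.186% of the counts in the 3 DSS libraries and between 0.401% and 0.519% in the 3 AOM/DSS libraries. The RNF138-/- colon libraries divided the same way, between 0.165% and 0.196% in DSS and between 0.537% and 0.577% in AOM/DSS. The organoids, which were grown from AOM/DSS tumors, held between 0.151% and 0.303%. The processed pseudogene Gm12164 had 0 counts in the 3 DSS libraries and 18.3, 14.4 and 20.2 CPM in AOM/DSS, at least 285-fold higher when 0 is set to the 3 counts over the group that a count of 0 allows. Gm4750, another processed pseudogene, and the small nucleolar RNA gene Snord90 were likewise at 0 in DSS and at least 139-fold and 135-fold higher in AOM/DSS. Of the transcript windows of 50 bases, 97.7% for Gm4750 and 48.4% for Gm12164 also occur in other genes, so the locus that made these reads is uncertain. The short mitochondrial gene mt-Atp8 (chosen after its values were seen) had 0, 0.291 and 0.127 CPM in DSS and 6.88, 7.03 and 5.39 in AOM/DSS, and it had 0 counts in every one of the organoid libraries. Treatment and any difference in preparation or counting between these libraries cannot be told apart in this design. When protein-coding genes alone were scaled and fitted, 467 were called higher and 342 lower. The share of calls that were higher was 68.6% over all genes, 57.7% in that fit, and 52.5% after a correction for gene length, which called 1010 higher and 914 lower. With 1 DSS library left out the share was 89.5%, 81.2% and 54.9% without DSS 1, 2 and 3.

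**Figure D1:**
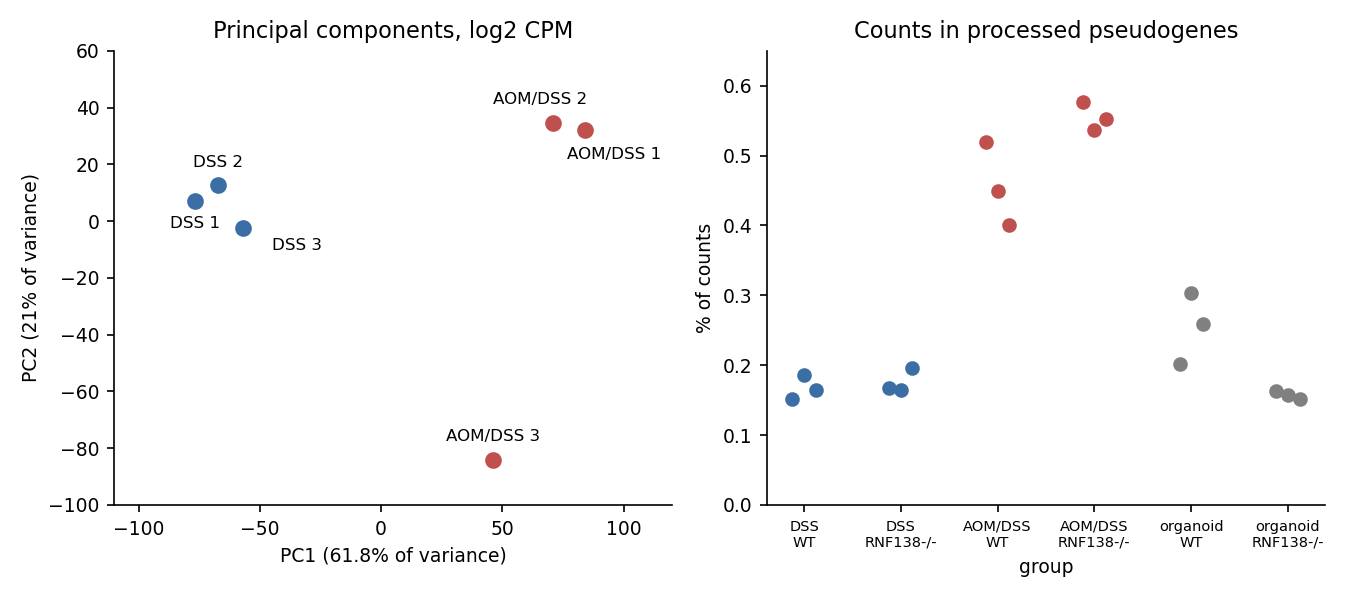
Left, the 6 wild-type colon libraries on the first and second principal components of log2 CPM, with the share of variance of each on its axis. Right, the percent of counts in processed pseudogenes for each of the 18 libraries by group. DSS and AOM/DSS libraries separate on the first component, AOM/DSS 3 stands apart on the second, and the 6 AOM/DSS colon libraries of both genotypes hold 0.401% to 0.577% of counts in processed pseudogenes against 0.151% to 0.303% in the other 12.

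AOM/DSS 3 stood apart from its replicates. Its log2 CPM correlated with AOM/DSS 1 and 2 at r = 0.926 and 0.927 across genes, whereas these correlated with each other at 0.976 and the DSS libraries among themselves at 0.970 to 0.984. It had the fewest counts, 11514716 against 14607696 to 18489247 in the other 5, and the largest share in its 10 most abundant genes, 11.1% against 6.72% to 7.79%. Mitochondrial genes held 6% of its counts, against 3.2% to 4.61% in the other 5. Without it 2000 genes were called higher (11.2% of 17928) and 1271 lower (7.09%), of which 1099 and 1121 were protein-coding (7.38% and 7.52% of 14898). These calls included 1135 of the 1159 and 503 of the 530. Among the genes called without it, AOM/DSS 3 lay at a median of 50.3% of the way from the DSS mean to the mean of AOM/DSS 1 and 2 for the higher genes and 57.8% for the lower genes, on a log2 scale. It lay beyond all 3 DSS libraries in the same direction for 74.8% of the higher and 68.8% of the lower genes, against 32.9% and 39.7% of all genes. These genes were selected on AOM/DSS 1 and 2, so a library outside the selection can lie short of them for that reason alone, and the positions are a description. Leaving out DSS 1 in its place left 350 higher and 41 lower genes, and leaving out DSS 2 left 493 and 114. Without AOM/DSS 1 there were 693 and 159, and without AOM/DSS 2 the lower genes numbered 302. Calls that held with any 1 of the 6 libraries left out numbered 367, of which 257 were pseudogenes. Protein-coding genes among them were 59 that were higher and 33 that were lower.

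**Figure D2:**
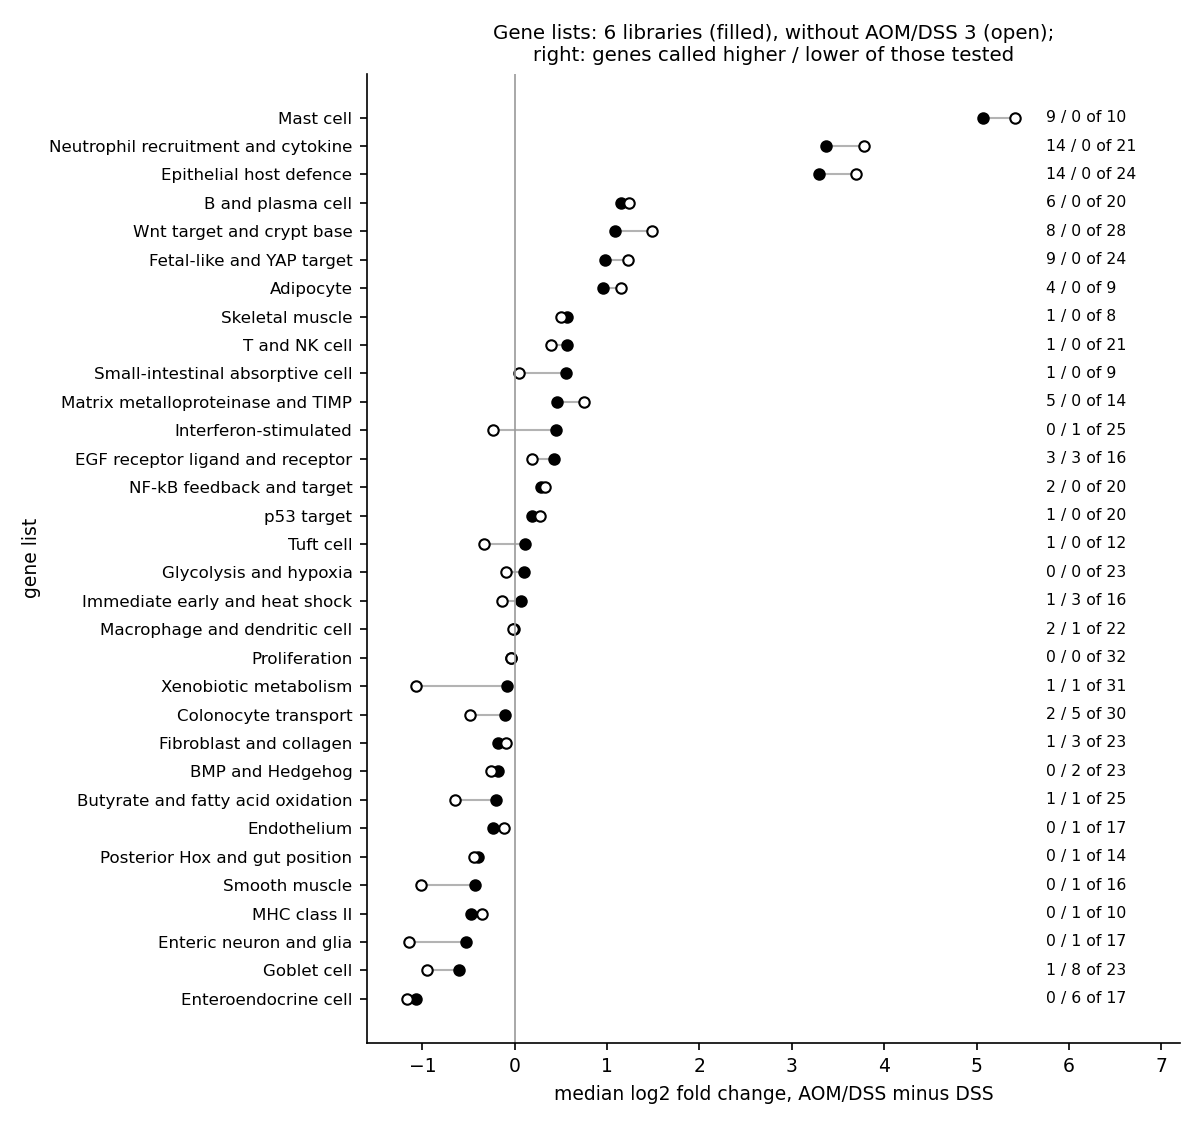
Median log2 fold change (AOM/DSS minus DSS) of each gene list with 8 or more genes tested, with all 6 libraries as filled points and without AOM/DSS 3 as open points, and at the right the number of genes called higher and lower of those tested. Mast cell, neutrophil and host defence genes lie highest (medians 5.07, 3.37 and 3.29) and enteroendocrine genes lowest (−1.07), and the largest shifts without AOM/DSS 3 are downward, in xenobiotic metabolism, interferon-stimulated, enteric neuron and glia, and smooth muscle genes.

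Several secreted inhibitors and other targets of Wnt signaling were higher in AOM/DSS. Of 28 genes of Wnt targets and of the crypt base, 8 were called higher and 0 lower, with a median log2 fold change of 1.09 against −0.02 over protein-coding genes. Notum, an enzyme that removes the lipid from Wnt ligands, had 0.576, 0.581 and 0.57 CPM in the DSS libraries and 144, 116 and 4.01 in AOM/DSS. Its libraries did not overlap between the groups, and AOM/DSS 3 was far below AOM/DSS 1 and 2. On the log2 scale it rose by 7.24 with an SE of 1.26 (edgeR, adjusted p = 0.0128). Wif1, which binds Wnt ligands outside the cell, had 1.67, 0.93 and 1.14 CPM in DSS and 255, 231 and 21.1 in AOM/DSS (log2 fold change 7.07, SE 0.98, edgeR, adjusted p = 0.00602). Wif1 was the 1 gene of the list that stayed called whichever library was left out. The inhibitor Dkk2 rose from 4.72, 4.36 and 3.74 to 32.4, 45.1 and 6.56 CPM, and Apcdd1, a membrane inhibitor, from 4.21, 3.95 and 3.55 to 166 and 111 in AOM/DSS 1 and 2, while AOM/DSS 3 had 3.33 CPM, below all 3 DSS libraries.

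Some transcription factor and stem cell genes of the same list were also higher. Prox1, a homeobox factor of colonic tumors, rose from 4.15, 3.6 and 4.75 CPM to 154, 245 and 22.4 (log2 fold change 5.07, SE 0.80, edgeR, adjusted p = 0.00958). The Wnt-responsive factor genes Sp5 and Lef1 had log2 fold changes of 5.24 and 4.37. Lgr5, the R-spondin receptor that marks crypt-base stem cells, had 4.03, 3.2 and 3.42 CPM in DSS and 30.1, 63.6 and 6.56 in AOM/DSS, all above the DSS libraries (log2 fold change 3.24, SE 0.71, edgeR, adjusted p = 0.0272). Axin2, the feedback inhibitor that is the most used readout of the pathway, had 38.7, 47.9 and 29.3 CPM in DSS and 160, 196 and 23.4 in AOM/DSS, so the groups overlapped through AOM/DSS 3 and it was not called (log2 fold change 1.71, SE 0.65, edgeR, adjusted p = 0.128). Without AOM/DSS 3 its log2 fold change was 2.19 (edgeR, adjusted p = 0.000357), and 15 genes of the list were called higher. Ascl2, a stem cell factor, and Sox9 did not pass the test, with log2 fold changes of −0.07 and −0.38. Of the 8 calls, 1 held without DSS 1, 2 without DSS 2 and 3 without DSS 3, whereas all 8 held without AOM/DSS 3. Bulk tissue does not separate more cells with an active pathway from more RNA per cell, here or in the results that follow.

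**Figure D3:**
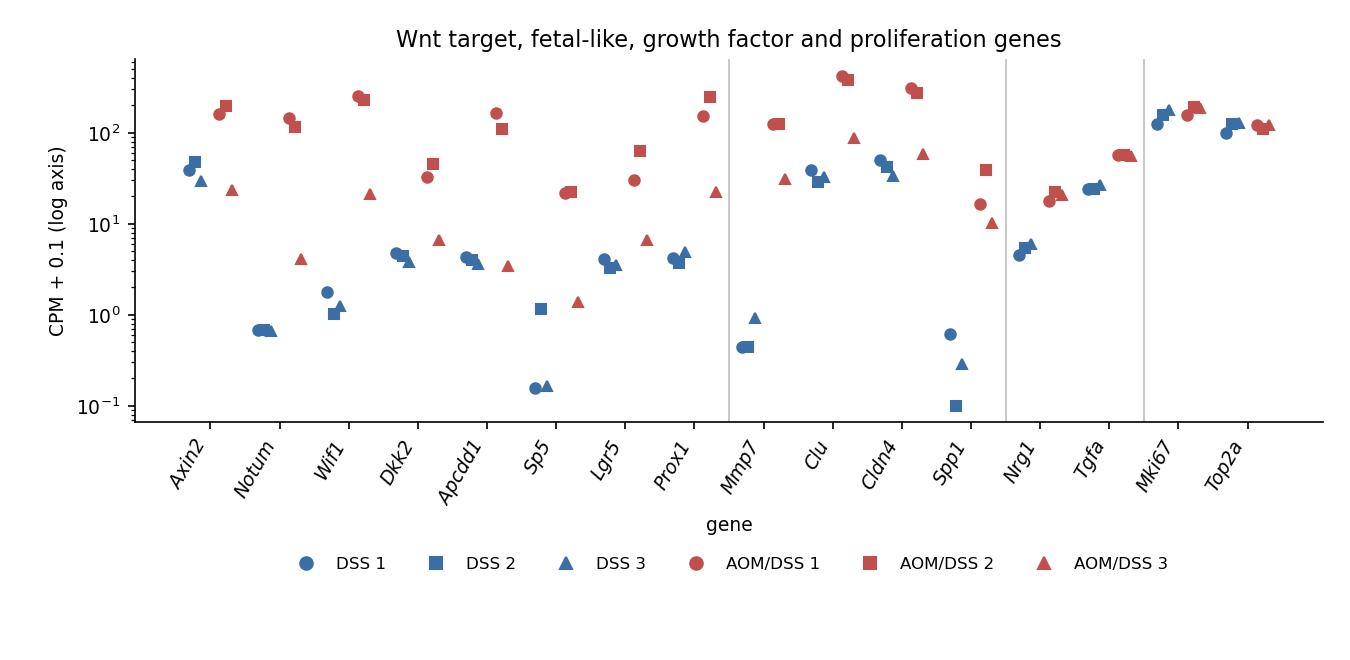
CPM + 0.1 on a log axis for genes of the Wnt target list (left block), Mmp7 with fetal-like genes, growth factors, and proliferation genes (right block), 1 point per library (DSS blue, AOM/DSS red, symbols for replicates 1 to 3). AOM/DSS 1 and 2 lie far above DSS for the Wnt inhibitors, AOM/DSS 3 lies between these and the DSS libraries, or below them for Apcdd1 and Axin2, and Mki67 and Top2a overlap.

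Promoter sequence was read for the Wnt target genes that were called and for chemokine genes described later, because both groups moved together and each has a well-known binding motif. The windows were the 250 bases before each start in RefSeq on GRCm38.p6. The TCF/LEF motif was searched as CTTTG followed by AA, AT, TA or TT, on both strands. It was found in 2 of the 5 called Wnt target genes that had a window, Sp5 and Lef1, and in 16.8% of all 27025 genes with a window. The stretches around the matches are given 5′ to 3′ on the strand of the gene, with the matches in capitals, for Sp5 on chr2:70474673-70474737 and for a start of Lef1 on chr3:131156117-131156183, both on the plus strand.
Sp5: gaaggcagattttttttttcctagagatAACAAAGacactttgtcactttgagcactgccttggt
Lef1: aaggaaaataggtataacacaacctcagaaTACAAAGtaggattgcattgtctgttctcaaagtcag
A match is a run of letters and was not tested as a binding site.

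Genes of the fetal-like, regenerating epithelium and of YAP signaling were higher in part. Of 24 tested, 9 were called higher and 0 lower, with a median of 0.98. Clu, which encodes clusterin and marks revival stem cells, rose from 38.9, 28.9 and 32.8 CPM to 422, 380 and 87.1 (log2 fold change 3.14, SE 0.55, edgeR, adjusted p = 0.0126). The matrix phosphoprotein Spp1 was at 16.3, 38.7 and 9.99 CPM against at most 0.518 in DSS, and it was the 1 gene of the list called without each library in turn. The tight junction gene Cldn4 and the stem cell antigen Ly6a were 5.12-fold and 2.03-fold higher. Anxa1 did not pass the test (log2 fold change 0.79, edgeR, adjusted p = 0.19). Without DSS 1 the list kept 1 of its 9 calls.

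Some ligands of the EGF receptor family rose and 1 fell, and 2 receptor inhibitors fell. Tgfa had 24.3, 24.1 and 26.7 CPM in DSS and 57.5, 56.9 and 55.8 in AOM/DSS, so that the libraries of each group lay close together (log2 fold change 1.18, SE 0.15, edgeR, adjusted p = 0.0042). Nrg1, a ligand of ERBB3 and ERBB4, rose 3.86-fold and Hbegf 2.49-fold. Egf itself fell by 1.66 on the log2 scale, and the receptor inhibitors Lrig1 and Lrig3 fell by 1.26 and 1.04. Areg, Ereg, the receptor Egfr and the inhibitor Errfi1 (log2 fold change 0.56) did not pass the test. Of 16 genes tested, 3 were called in each direction, and the calls of Tgfa and Nrg1 held without each library in turn. No other call of the list held without DSS 1 or DSS 2, and that of Hbegf was lost whichever library was left out.

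Proliferation genes gave few calls or none. Of 32 tested, edgeR called 0 in either direction with all 6 libraries, and the median log2 fold change was −0.04. Without DSS 3 edgeR called 3 lower and 0 higher, and with any other library left out it called 0. DESeq2, limma voom with quality weights and the GC correction each called 2 lower and 0 higher, as did edgeR with no filter on low counts, the length correction and the spread of all 12 colon libraries each gave 1 lower, and limma voom called 0. At an unadjusted p under 0.05 with the same fold, 0 were higher and 2 lower, the mitotic kinase Plk1 and the factor E2f1 (log2 fold changes of −1.25 and −1.03). Mki67 had 126, 158 and 177 CPM in DSS and 155, 190 and 186 in AOM/DSS (log2 fold change 0.20, SE 0.19), and Top2a had a log2 fold change of 0.00 (SE 0.17). Of 20 p53 target genes, 1, Ddit4l, was called higher, a call lost without DSS 1, 2 or 3 or AOM/DSS 1. Of 23 BMP and Hedgehog genes 2 were called lower, of which the BMP antagonist Nog fell by 1.84, and neither call held without DSS 1, DSS 2 or AOM/DSS 1.

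Most genes of neutrophils and their chemoattractants that had enough counts to be tested were higher in AOM/DSS. Of 28 genes 21 were tested, and the rest, among them Il6 and Il17a, had too few counts. Of the 21 tested, 14 were called higher and 0 lower (66.7%, against 3.58% of protein-coding genes), with a median log2 fold change of 3.37. A gene near 0 in DSS could pass the count filter only through AOM/DSS, so this share and median depend partly on the filter. The same limit applies to the mast cell and squamous genes below. S100a8, a subunit of calprotectin, had 0, 0.174 and 0.19 CPM in DSS and 37.8, 18.7 and 16.4 in AOM/DSS (log2 fold change 7.58, SE 0.69, edgeR, adjusted p = 0.00159). Its partner S100a9 had 2 counts over the DSS libraries and 1507 over the AOM/DSS libraries, a ratio of 826 with a 95% counting interval from 228 to 6820. Neutrophil collagenase Mmp8 and the chemokine receptor Cxcr2, both with 2 counts in DSS, had ratios of 66.3 (18 to 554) and 48.2 (13 to 404). These intervals cover counting error only. In all of these genes AOM/DSS 3 was above every DSS library.

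The neutrophil chemokines Cxcl5, Cxcl2 and Cxcl1 were higher too. Cxcl5, made by epithelium, had 0.23, 0.0581 and 0.127 CPM in DSS and 68.5, 34.4 and 5.97 in AOM/DSS (log2 fold change 7.95, SE 1.07, edgeR, adjusted p = 0.00554). Cxcl2 had 0.115, 0.291 and 0 CPM against 8.62, 8.02 and 2.25, and Cxcl1 had 0.173, 0.988 and 0.57 against 11.1, 5.84 and 1.08. Of the cytokines, Il1b rose from 2.71, 1.98 and 3.11 to 8.04, 12.4 and 11.9 CPM, a 4.15-fold change, and Il1a 20.6-fold. Ptgs2, the inducible prostaglandin synthase, had a log2 fold change of 0.04 (edgeR, adjusted p = 0.963). Calls of Cxcl5, S100a8, S100a9, Cxcr2, Il1a, Trem1, Mmp8 and Clec4e held without each library in turn, and without DSS 1 the list kept these 8 of its 14 calls. Of 20 feedback genes and other targets of NF-κB 2 were called higher, Ccl20 and Rel, and neither call held without DSS 1, DSS 2, AOM/DSS 1 or AOM/DSS 2. These 20 leave out Cxcl1 and Ptgs2, which the paper also used as NF-κB targets. Both stood in the neutrophil list, where Cxcl1 was called higher and Ptgs2 was not, so the count does not cover all targets. The log2 fold changes were 0.31 for Nfkbia, 0.49 for Tnfaip3 and −0.06 for Nfkb2, none of which passed the test.

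The κB motif was searched as GGG and TTCC with any 3 bases between them, on both strands of the same windows, and was found in 3 of the 12 called genes of this list that had one, against 5.31% of all genes with a window. The matches of the chemokine genes Cxcl1 (chr5:90891126-90891214) and Cxcl2 (chr5:90903772-90903860) are shown in capitals, both on the plus strand, where runs of capitals longer than the motif hold overlapping matches of both strands.
Cxcl1: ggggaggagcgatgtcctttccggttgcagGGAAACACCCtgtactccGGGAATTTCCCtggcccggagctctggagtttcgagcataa
Cxcl2: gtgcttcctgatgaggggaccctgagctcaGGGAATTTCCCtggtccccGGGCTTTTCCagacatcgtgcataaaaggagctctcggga
The host defence genes that were called had no match in the 11 windows at hand, which says only that these letters were not in them.

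Many antimicrobial and acute-phase genes of the epithelium were higher in AOM/DSS. Of 24 host defence genes, 14 were called higher and 0 lower (58.3%), with a median of 3.29. Lyz1, the lysozyme of Paneth cells, had 2.36, 2.09 and 2.98 CPM in DSS and 535, 454 and 63.1 in AOM/DSS (log2 fold change 7.14, SE 0.84, edgeR, adjusted p = 0.00334). The lectin Itln1 had 0.691, 1.05 and 0.57 CPM against 109, 65.1 and 152. Lcn2, the siderophore-binding lipocalin of inflamed gut, rose 14.7-fold, Saa3 20.4-fold, and the nitric oxide synthase Nos2 from 0.864, 2.21 and 1.2 CPM to 35.8, 19.1 and 60.8. Reg3b and Retnlb were highest in AOM/DSS 3, at 133 and 2280 CPM, and lowest in AOM/DSS 1, at 4.25 and 12.4. Calls of Lcn2, Saa2, Saa3, Nos2, Cp, Lyz1 and Itln1 held without each library in turn, and these were the 7 that held without DSS 1. Saa2 shares 31.8% of its 50-base windows with another gene, and Lyz1 16.1%.

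Paneth cell α-defensins, which the normal mouse colon hardly makes, led the genes with the largest changes. Defa24, Defa30, Defa22, Defa5 and Defa21 had 0 counts in the 3 DSS libraries, so they entered the test through AOM/DSS alone. In AOM/DSS Defa24 had 226, 96.8 and 33.3 CPM and Defa30 had 102, 46.4 and 16, and over the group they were at least 2120-fold and 978-fold higher. Between 28.1% and 99.7% of the 50-base windows of these 5 genes also occur in other genes, so the member that made the reads is uncertain. Among the 12 largest increases stood also the pentraxin Mptx2 (1 count in DSS, 1823 in AOM/DSS), the proton channel Otop1 (at least 200-fold) and the noncoding genes Gm45336 and 2700046A07Rik (at least 902-fold and 159-fold), beside Gm12164, Gm4750 and Snord90. Mptx2 was uneven, with 1.8, 85.9 and 5.87 CPM. Its call was lost without DSS 1, 2 or 3, and so were those of Otop1 and 2700046A07Rik. The last 2 were also lost without AOM/DSS 1, and Otop1 without AOM/DSS 2. Calls of Defa22 and Defa5 were lost without DSS 1 or DSS 2 and that of Defa21 without DSS 1. Those of Defa24, Defa30 and Gm45336 held without each library.

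Some matrix metalloproteinases were higher in AOM/DSS and others were not called. Mmp7 (matrilysin), an epithelial protease and Wnt target, had 0.346, 0.349 and 0.824 CPM in DSS and 126, 126 and 30.8 in AOM/DSS (log2 fold change 7.54, SE 0.71, edgeR, adjusted p = 0.00174). The stromelysin Mmp10 had 1.27, 0.697 and 1.65 against 31, 79.2 and 44.5, a 42.8-fold change. Mmp12, Mmp13 and the inhibitor Timp1 rose 13.4-fold, 9.66-fold and 4.01-fold, and these 5 of 14 genes were called higher and 0 lower, with a median of 0.46. Mmp2, Mmp3 and Mmp14 did not pass the test (log2 fold changes of −0.09, 1.69 and 0.25). Mmp7 and Mmp10 were called without each library in turn, and of the 5 calls only these held without DSS 1 or DSS 2.

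**Figure D4:**
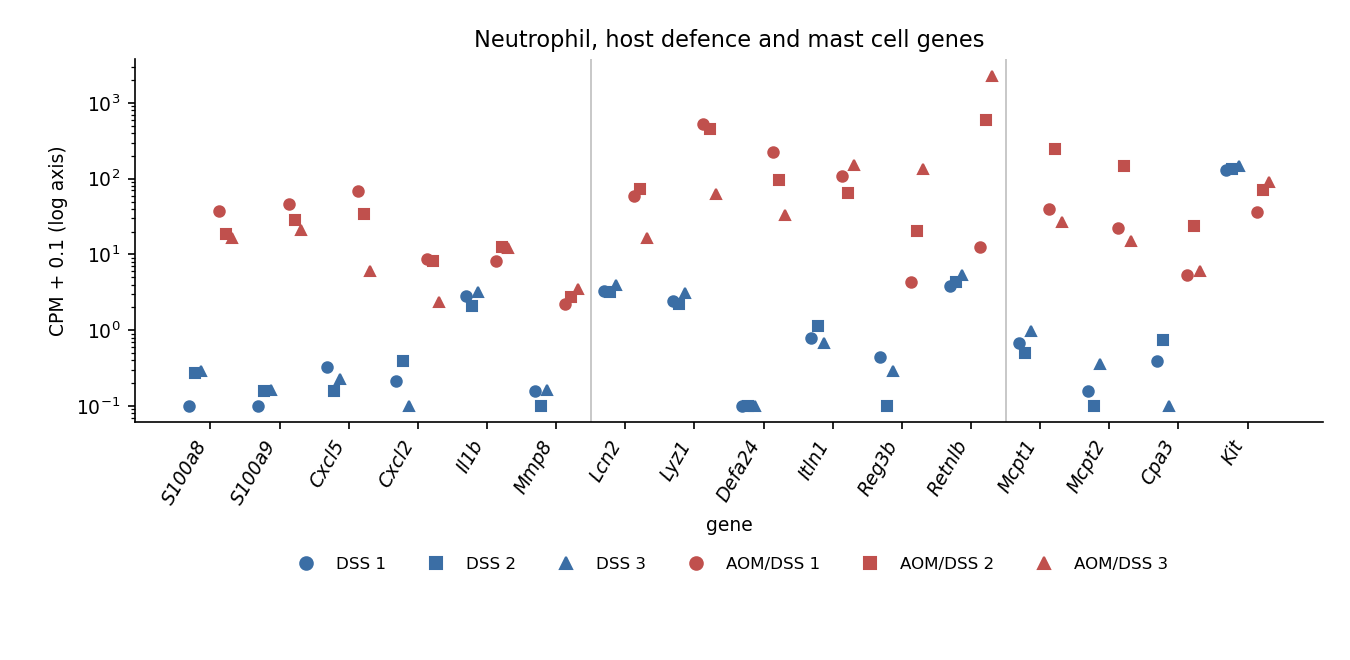
CPM + 0.1 on a log axis for neutrophil genes (left block), host defence genes (middle block) and mast cell genes (right block), 1 point per library (DSS blue, AOM/DSS red). The DSS libraries lie below every AOM/DSS library for all genes shown except Kit, which lies above them. Of all 17158 genes tested, 3090 lay without overlap higher in AOM/DSS and 2786 lower.

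Mast cell genes showed the highest median of the lists. Of 10 tested, 9 were called higher and 0 lower, with a median log2 fold change of 5.07. Mcpt1, the protease of mucosal mast cells, had 0.576, 0.407 and 0.887 CPM in DSS and 39.4, 248 and 27.1 in AOM/DSS (log2 fold change 7.39, SE 1.06, edgeR, adjusted p = 0.0066), and Mcpt2 was 575-fold higher. Genes of connective tissue mast cells, Cma1 and Mcpt4, had log2 fold changes of 4.98 and 4.04, and Ms4a2, a chain of the IgE receptor, was at 0 counts in DSS and at least 121-fold higher. AOM/DSS 2 was the highest library for Mcpt1, Mcpt2, Cma1, Cpa3, Tpsb2 and Ms4a2. Kit, which interstitial cells of Cajal also express, went the other way without passing the test, from 130, 133 and 147 CPM to 36.4, 71.1 and 90.5 (log2 fold change −1.05, edgeR, adjusted p = 0.0661). Without DSS 1 none of the 9 calls held, and without DSS 2 or DSS 3 there were 3.

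Lymphoid and myeloid genes gave fewer calls. Of 20 B and plasma cell genes 6 were called higher, among them Cr2, Ms4a1, Blk, Pax5 and Ighm of B cells. The complement receptor Cr2 rose 7.01-fold and Ms4a1, which encodes CD20, 6-fold, whereas Jchain of plasma cells had a log2 fold change of −0.26. None of the 6 calls held without DSS 1, 2 or 3, or without AOM/DSS 1. Of 21 T and NK cell genes the inhibitory receptor Ctla4 alone was called, from 0.864, 0.755 and 0.57 CPM to 4.5, 3.66 and 3.62, and its call held without each library. Of 22 macrophage and dendritic cell genes 2 were called higher and 1 lower. Chil3, linked to alternative activation of macrophages and with 29.4% of its 50-base windows shared, rose 16.9-fold. The surface marker Adgre1 (F4/80) fell by 1.27 on the log2 scale. Which cells held these transcripts was not tested. Interferon-stimulated genes gave 1 call of 25, the GTPase Iigp1, which fell by 1.69, and their median of 0.45 was −0.24 without AOM/DSS 3. Of 10 MHC class II genes 1 was called, H2-Ab1, which fell by 1.33. The calls of Adgre1, Iigp1 and H2-Ab1 were lost without DSS 1, among other libraries.

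Genes of mature epithelium fell in part. Of 30 colonocyte transport genes 5 were called lower and 2 higher, with a median of −0.11. The water channel Aqp8 had 984, 839 and 1060 CPM in DSS and 210, 322 and 341 in AOM/DSS (log2 fold change −1.72, SE 0.25, edgeR, adjusted p = 0.00735). Slc26a3, the chloride and bicarbonate exchanger, fell by 1.23, Hsd11b2, which protects the mineralocorticoid receptor, by 1.20, the magnesium channel Trpm6 by 1.23 and the guanylin family peptide Guca2b by 1.42. Clca4b, a calcium-activated chloride channel regulator, and Scnn1g, a subunit of the epithelial sodium channel, went the other way. Clca4b had 0.864, 0.755 and 0.824 CPM in DSS and 1150, 200 and 52.5 in AOM/DSS, and 24.8% of its 50-base windows are shared with other genes. Car4 and Slc26a2 did not pass the test (log2 fold changes of −0.23 and 0.00). Without DSS 1 none of the 7 calls held.

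Goblet cell genes were lower in part. Of 23 goblet cell genes 8 were called lower and 1 higher, with a median of −0.60. Spdef, the factor that drives goblet cell maturation, had 257, 253 and 159 CPM in DSS and 29.3, 53.7 and 99.5 in AOM/DSS (log2 fold change −1.88, SE 0.43, edgeR, adjusted p = 0.0307). The secretory lineage factors Atoh1 and Gfi1 were not called (log2 fold changes of −0.91 and −0.81). The endoplasmic reticulum factors Creb3l1 and Agr2 fell by 1.73 and 1.27. B3gnt6, which builds the core 3 sugar of colonic mucin, had 153, 118 and 91.9 CPM against 1.99, 5.25 and 25.7, one of the 12 largest decreases. Muc2, the main mucin, had 9720, 10600 and 9280 CPM in DSS and 3120, 6120 and 13700 in AOM/DSS, and neither it nor Clca1 or Zg16 passed the test, while the trefoil peptide Tff3 fell by 1.01. Without AOM/DSS 3 Muc2 was called lower, with a log2 fold change of −1.11 against −0.37 with it. Ang4, an angiogenin of secretory cells, rose from 15.9, 25.8 and 17.9 CPM to 67.7, 1120 and 1970. Without DSS 1 none of the 9 calls held, and without AOM/DSS 3 all did.

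Enteroendocrine genes had the lowest median of the lists. Of 17 tested, 6 were called lower and 0 higher, with a median of −1.07. Gcg, the precursor of glucagon-like peptides, had 128, 105 and 140 CPM in DSS and 14.8, 35.1 and 28.1 in AOM/DSS (log2 fold change −2.26, SE 0.32, edgeR, adjusted p = 0.00612), a call that held without each library. Insl5, a hormone of distal colon L cells, had 172, 148 and 156 CPM against 29.5, 29 and 3.62. The transcription factors Insm1, Fev and Neurog3 fell by 2.71, 2.46 and 2.28, and Cck by 2.69. Pyy missed the threshold (log2 fold change −1.07, edgeR, adjusted p = 0.0517), and Chga did not pass it. Of the 6 calls 1 held without DSS 1, 3 without DSS 2, and 6 without AOM/DSS 3. Of the tuft cell genes 1 of 12 was called, the actin-binding protein Avil, which rose 5.39-fold, while Dclk1 and Trpm5 overlapped. The call of Avil was lost without DSS 1, 2 or 3.

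**Figure D5:**
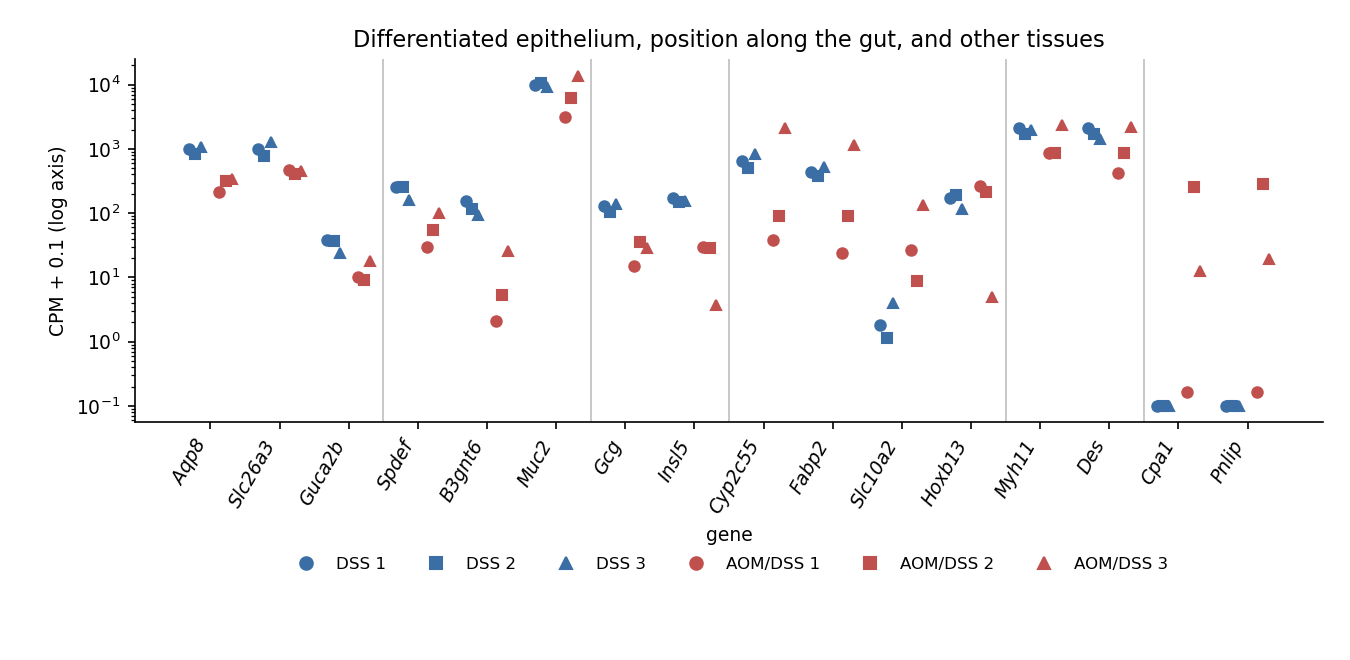
CPM + 0.1 on a log axis for colonocyte, goblet and enteroendocrine genes (first 3 blocks), genes that differ along the gut, smooth muscle genes and pancreatic enzymes (right block), 1 point per library. AOM/DSS 3 (red triangles) lies apart from AOM/DSS 1 and 2 for Muc2, Cyp2c55, Fabp2, Hoxb13, Myh11 and Des.

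AOM/DSS 3 stood apart in single genes that differ along the gut, which were chosen after their values were seen. The 18 posterior Hox and gut position genes at hand summed to 808, 834 and 762 CPM in AOM/DSS 1 to 3, and such a sum can hide genes that move in opposite directions. Of the 14 tested, 1 was called lower with all libraries and 4 without AOM/DSS 3. Hoxb13, a homeobox gene of the distal colon, had 171, 189 and 117 CPM in DSS, 268 and 210 in AOM/DSS 1 and 2, and 4.8 in AOM/DSS 3. Cyp2c55, a cytochrome P450 of the colon, had 656, 511 and 845 CPM in DSS, 38 and 91.3 in AOM/DSS 1 and 2, and 2140 in AOM/DSS 3. The fatty acid binding protein Fabp2, the alkaline phosphatase Alpi and the bile acid transporter Slc10a2 were likewise highest in AOM/DSS 3, at 1170, 112 and 132 CPM. Of 31 xenobiotic metabolism genes 1 was called lower and 1 higher with all libraries, and 15 lower and 1 higher without AOM/DSS 3, where Cyp2c55 had a log2 fold change of −3.39 (edgeR, adjusted p = 0.000984) against 0.17 with it. The called genes were Cyp2c69, which fell by 2.45, and Cyp2e1, the enzyme that activates AOM in the liver, which rose from 0.23, 0 and 0.317 CPM to 39.6, 13.2 and 3.92. Neither call held without DSS 1. Cyp2c69 shares 54.8% of its 50-base windows with other genes. Cdx1, a homeobox gene of the whole colon epithelium, fell by 1.51, a call lost without DSS 1, DSS 2, AOM/DSS 1 or AOM/DSS 2. The part of position in the results for these libraries was not tested.

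Non-epithelial tissue also differed between libraries. Smooth muscle genes summed to 8660 to 10100 CPM in DSS, to 3490 and 4900 in AOM/DSS 1 and 2, and to 10900 in AOM/DSS 3. Myh11, the smooth muscle myosin, had 2110, 1720 and 1970 CPM in DSS and 870, 866 and 2380 in AOM/DSS. Of 16 genes 1 was called lower with all libraries and 8 without AOM/DSS 3, and of 17 enteric neuron and glia genes 1 and 9. Of 9 fat cell genes 4 were called higher (Cfd, Adipoq, Car3 and Cidec), while the list summed to 245 to 281 CPM in DSS and to 255 to 357 in AOM/DSS. Without DSS 1 the call of Cidec alone held. Pancreatic acinar enzymes were at 0 counts in DSS for Cpa1 and Pnlip and at 0.0643, 255 and 12.4 CPM and 0.0643, 280 and 19 CPM in AOM/DSS. AOM/DSS 2 held most of these reads, and neither gene entered the test. Keratins of squamous epithelium, Krt13, Krt14 and Krt15, were called of 6 tested, while Krt5 and Trp63, which define basal squamous cells, were under 0.6 CPM in every library. Of these 3 calls 0 held without DSS 1 or DSS 3 and 1 without DSS 2 or AOM/DSS 1. The part of these tissues in the epithelial and immune results was not tested. Immediate early and heat shock genes gave 4 calls of 16, of which Ier3 was higher and Nr4a1, Hspa1a and Hspa1b lower. Of these calls 0 held without AOM/DSS 1, 1 without DSS 1 (Hspa1a), and 2 without DSS 3 or AOM/DSS 2. Endothelial genes gave 1 call of 17 (Lyve1, which fell by 1.23), fibroblast genes 4 of 23, red blood cell genes 0 of 5 and skeletal muscle genes 1 of 8. For the 5 red blood cell genes DESeq2 and limma voom also called 0, 1 passed downward without adjustment, and edgeR called 1 higher without DSS 3 and 1 lower without AOM/DSS 2. Leaving out DSS 1 or DSS 2 ended every call of the smooth muscle, neuron and glia, endothelial, fibroblast and skeletal muscle genes.

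Metabolic genes gave few calls. Of 25 genes of butyrate and fatty acid oxidation, the fuel use of colonocytes, Pdk4 was called higher and Acat1 lower (log2 fold changes of 2.03 and −1.10), calls lost without DSS 1 or DSS 2. Of 23 genes of glycolysis and hypoxia edgeR called 0, and without adjustment 2 passed the same fold upward and 0 downward. DESeq2 called 2 of the 23 higher and limma voom 0, limma voom with quality weights called 2 higher and 1 lower, and edgeR called 1 higher and 1 lower without AOM/DSS 3 and 1 higher without AOM/DSS 2.

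The largest decreases beside B3gnt6 were in genes of diverse function. Six2 and Dmrta2, transcription factors, Fzd9, a Wnt receptor, C2cd4a, Il17d and Vstm2l were between 8.29-fold and 20.9-fold lower. Fzd9 had 28.9, 33.5 and 11.9 CPM in DSS and 1.03, 2.03 and 0.49 in AOM/DSS (log2 fold change −4.31, SE 0.58, edgeR, adjusted p = 0.00554), and its call held without each library. The immunoglobulin segments Ighv8-5 and Igkv7-33, the pseudogene Gm13577, Adnp and the heat shock gene Hspa1a made up the rest of the 12. Adnp shares 89.0% of its 50-base windows and Hspa1a 60.3% with other genes, so their reads may be split with a copy. Protein-coding genes called lower had a median transcript GC content of 55.7%, against 49.8% for those not called and 48.4% for those called higher, and the part of GC content in these decreases was examined with a refit only. The log2 level of a gene relative to its mean over the 6 libraries correlated across genes with its GC content at Spearman's rho of 0.383 and 0.406 in DSS 1 and 2, −0.357 in DSS 3, and −0.186 to −0.0855 in AOM/DSS. With a GC correction 1120 genes were called higher and 753 lower, and the calls of Vstm2l, Spdef and Cdx1 were lost (log2 fold changes of −1.56, −1.46 and −0.78). Among the higher genes those of Tgfa, Ly6a and Rel (0.98, 0.79 and 0.87) and of Cxcl1 and Pax5 (3.13 and 1.81) were lost.

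The same comparison in RNF138-/- mice used other libraries, which were 3 AOM/DSS and 3 DSS. In 1 fit of the 12 colon libraries the change differed between genotypes in 1633 genes (edgeR interaction, adjusted p under 0.05, 8.67% of 18843). Leaving out any 1 of the wild-type DSS libraries gave 596 to 728, and leaving out the RNF138-/- libraries DSS 1, AOM/DSS 1 or AOM/DSS 2 gave 1009, 909 and 634. Mast cell and neutrophil genes had medians of 5.15 and 3.41 in wild type and 5.78 and 4.60 in RNF138-/-, and of their 11 and 23 genes 0 and 1 differed (Clec4e, a receptor of myeloid cells, by −3.78). Wnt target genes had medians of 1.07 and 2.78, and 4 of 28 differed (Nkd2, Smoc2, Cdca7 and Sox9). Smooth muscle genes fell far more in RNF138-/-, with medians of −0.44 and −5.43, and 15 of 16 differed, as did 18 of 20 B and plasma cell genes, with medians of 1.13 and −3.58. Retnlb rose in wild type and fell in RNF138-/- (log2 fold changes of 7.76 and −7.18). The lower muscle and lymphoid genes in the RNF138-/- AOM/DSS libraries stand beside every difference between the genotypes, and their part was not tested.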

How the data were processed

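RNA of 18 libraries was represented by a table of read counts for 36757 genes, and the 6 wild-type DSS and AOM/DSS columns were used, with the 6 RNF138-/- colon columns for the test between genotypes. The authors deposited whole-number counts per gene, with no normalization and no pooling. The submitters' processing notes name STAR 2.6.1d, HTSeq 0.11.2 and DESeq2 with mm10, and the strand setting is not given in the sources used here, so overlapping and antisense genes cannot be separated. A second table, which holds fold changes and p-values of the authors' own comparisons between genotypes, was not used.

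Genes were filtered with filterByExpr, scaled with TMM and tested with the quasi-likelihood test of edgeR 4.0.16 in R 4.3.3. Alternatives used limma 3.58.1 and DESeq2 1.42.0, and the procedure was also run on simulated data. The simulation gave every gene the same spread and held no deviating library, pseudogene shift or GC effect. It therefore does not bear on how these features affected the calls. Of the genes, 99.84% matched the GENCODE M21 annotation by identifier, which gave gene type, length and GC content. Windows of 50 bases of each transcript were compared with those of other genes to find shared sequence. Totals were 11514716 to 18489247 counts per library. Intervals are exact 95% counting intervals and, like the floor of 3 counts for a group at 0, cover counting error only.

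The members and the 35 gene lists were chosen with earlier results of these data known. Genes named were the 12 called genes with the largest change in each direction, with no overlap between groups and 5 CPM or more on average where the gene was higher, then 3 fixed genes of each list and up to 4 further called ones. Genes named outside this rule (among them Hoxb13, Clca4b, Avil, mt-Atp8, Nos2, Il1a, Cxcr2, Saa2, Saa3, Tgfa, Cxcl1, Csf3r, Dkk2, Lef1, Trem1, Agr2, Hsd11b2, Kit, Plk1 and E2f1, and other list members given by a log2 fold change alone) were chosen after their values were seen. Some genes that passed the rule are not reported here. Deviations of same-numbered DSS and AOM/DSS libraries from their group means correlated at −0.0952, 0.0709 and 0.0527, so the numbers did not pair the libraries.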

Additional observations from a re-analysis of the deposited data

Results flagged for a closer look

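For the named genes, the change from DSS to AOM/DSS was compared between wild-type and RNF138-/- colon by an interaction term (edgeR, 12 libraries), and 39 of them differed at an adjusted p under 0.05. Values are the log2 change in wild type minus that in RNF138-/-. Among epithelial products the differences were 14.94 for Retnlb, 8.88 for Ang4, 6.04 for Clca1, 5.43 for Itln1, 4.26 for Zg16, 2.6 for Muc2 and 1.62 for Tff3. Among absorptive and metabolic genes they were 10.32 for Cyp2c55, 9.59 for Fabp2, 9.24 for Alpi, 7.56 for Aqp8, 6.58 for Cyp2e1, 6.18 for Car4, 2.19 for Slc26a2, 4.01 for Cyp2c69, 3.20 for Abcg2 and 2.74 for Pdk4. The hormone genes Gcg and Chga differed by 3.79 and 2.55, and the tuft cell channel Trpm5 by 2.98. Muscle genes differed by 7.03 for Des, 5.57 for Myh11 and 7.99 for Ckm.

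Genes of fat cells differed by 14.40 for Cfd, 13.44 for Adipoq, 9.28 for Car3 and 7.03 for Cidec. Genes of B and plasma cells differed by 7.24 for Pax5, 6.05 for Cr2, 5.77 for Ms4a1, 4.38 for Blk and 3.35 for Jchain. The Wnt inhibitor Nkd2 differed by 3.14. In other genes the change was higher in RNF138-/-, with −1.20 for Lrig1, −2.83 for Nr4a1, −3.78 for Clec4e, −2.17 for Smoc2, −1.88 for Cdca7 and −1.92 for Sox9. Smooth muscle, fat and lymphoid lists had lower medians in the RNF138-/- comparison, and their part in these differences was not tested.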

How the results depend on the processing

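The counts of genes higher and lower in AOM/DSS, 1159 and 530, stayed within 1.5 times under RLE, upper quartile or no scaling, robust fitting, limma voom, thinning to the lowest total, the spread of 12 libraries and, chosen after seeing the data, a GC correction, which moved the median log2 fold change of all genes from 0.0272 to −0.0934. The counts were 1943 and 890 with no filter on low counts, 487 and 280 with a mean of at least 5 CPM, 1757 and 809 with DESeq2, 1940 and 1503 with quality weights in limma voom, and 1747 and 977 at an unadjusted p. Among other alternatives chosen after seeing the data, protein-coding genes alone gave 467 and 342, protein-coding genes without AOM/DSS 3 gave 1012 lower, and the length correction gave 914 lower. Leaving out 1 library gave 350 to 2000 higher and 41 to 1271 lower genes, with the lowest values without DSS 1 and the highest without AOM/DSS 3. Of 136 calls of named genes, 34 held without DSS 1, 60 without DSS 2 and 134 without AOM/DSS 3. With the replicate number as a block the counts were 826 and 356, 108 of the 136 calls held, and the numbers did not pair the libraries.

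Genes that differed between genotypes numbered 5103 at an unadjusted p, 2795 with DESeq2, 1667 with the replicate block, and 596 to 2228 with 1 library left out. In the fits without AOM/DSS 3, with quality weights, and on protein-coding genes without AOM/DSS 3, in that order, the log2 fold changes turned to −2.78, −2.59 and −2.72 for Alpi, to −1.18, −1.06 and −1.13 for Ckm, and to −3.39, −2.96 and −3.34 for Cyp2c55, and without AOM/DSS 3 that of Abcg2 turned to −1.04. With 1 library left out these genes reached at most 2.09, 0.79, 0.73 and 0.67. The causes were not tested. Genes with few counts were left out of the comparison reported, and the one with no filter tested 32259 genes.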
